A study of Mus musculus with 48 samples.

Results

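DNA methylation writers, erasers and readers were examined in the amygdala RNA of mice that differed in *Tph2* genotype and early rearing. The 9 genes *Dnmt1*, *Dnmt3a*, *Dnmt3b*, *Uhrf1*, *Tet1*, *Tet2*, *Tet3*, *Tdg* and *Mbd2* were taken by name from the 48440 genes of the deposited table, and all of them had at least 1 count. *Tph2* encodes the enzyme that makes serotonin in the brain. The 48 animals were male C57BL/6 mice aged 4 months, born to *Tph2*+/- parents of the C57BL/6N substrain, and were wildtype (*Tph2*+/+), heterozygous (*Tph2*+/-) or null mutant (*Tph2*-/-) from conception in every tissue. In the maternal separation condition (MS) litters were kept away from the dam for 3 h per day from postnatal day 2 to 15, and in the control condition (C) they were left with it. Each of the 6 groups held 8 mice, all of which had gone through behavioral tests before the tissue was taken, so that no group was naive to testing. The labels do not give litters, so that the spread between mice of a group may hold shared litters.

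Methylation of cytosine in CG dinucleotides is laid down in new places by DNMT3A and DNMT3B and copied to the new strand after replication by DNMT1, which UHRF1 guides to hemimethylated DNA. TET1, TET2 and TET3 oxidize methylcytosine, and TDG cuts out the oxidized forms so that base excision repair can put back an unmodified cytosine. MBD2 binds methylated CG and brings in the NuRD corepressor complex. In the adult brain most neurons no longer divide, and *Dnmt3a* and *Tet3* are known there as the leading writer and eraser.

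*Tdg* had far more counts than the other genes in every mouse, and the remaining 8 genes lay near the counting limit. A library held 609489 to 6296568 counts on genes (median 738490), since 75.8% to 97.6% of the 23759782 to 35264808 uniquely placed read pairs fell on no gene. A floor of 3 counts therefore corresponded to 0.476 to 4.92 counts scaled to the counts on genes (CPM), and it covers counting error only. The 8 neuron markers examined summed to 11 to 85 counts per sample (median 37), the lowest median of the cell-type lists. The highest was that of 5 microglia markers, with 93 to 282 counts (median 196.5). The 20 genes that brain tissue is known to express strongly had mean counts from 1.81 to 69.2, with a median of 8.25. *Tph2* itself had 2 counts in all, 1 in each of 2 mice labelled *Tph2*-/- MS, which is below the floor and checks no genotype. In 4 libraries the non-coding RNA *Gm42418* took more than 500000 counts. The low end of the floor, 0.476, came from 1 of them, a *Tph2*+/+ C library with 93.3% of its counts on *Gm42418* and *Lars2*. After TMM its effective size was 424110 counts, so that its floor in scaled CPM was higher than 0.476. The library kit keeps the strand of the RNA, but the strand setting of the counting is not given in the sources used here. Whether the counts of any of the 9 genes come from its own strand or from the other one therefore cannot be told apart.

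The starts of *Tet3* and *Dnmt3b* are shown first, because in each case a gene on the other strand overlaps them and took more counts than the eraser or writer did. The 250 bases before the RefSeq start of *Tet3* (GRCm38.p6, chr6:83441679-83441928, minus strand) hold the first base of the non-coding gene *B230319C09Rik* at 83441755. This RefSeq start lies inside *Tet3* as annotated for the counts, where the gene begins at 83459084. Those of *Dnmt3b* (chr2:153649199-153649448, plus strand) lie within *Dnmt3bos*, which runs across the start of *Dnmt3b*. The window of *Tet2* (chr3:133544391-133544640, minus strand), which also lies inside the annotated gene (begin at 133545139), is shown as the richest in CG among the windows found for these genes. Capitals mark CG, the dinucleotide whose methylation is described above.
Tet3: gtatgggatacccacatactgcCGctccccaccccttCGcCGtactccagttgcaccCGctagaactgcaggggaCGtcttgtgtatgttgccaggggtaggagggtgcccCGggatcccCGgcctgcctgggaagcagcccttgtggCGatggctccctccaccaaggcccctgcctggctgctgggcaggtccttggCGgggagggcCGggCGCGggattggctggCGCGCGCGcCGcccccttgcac
Dnmt3b: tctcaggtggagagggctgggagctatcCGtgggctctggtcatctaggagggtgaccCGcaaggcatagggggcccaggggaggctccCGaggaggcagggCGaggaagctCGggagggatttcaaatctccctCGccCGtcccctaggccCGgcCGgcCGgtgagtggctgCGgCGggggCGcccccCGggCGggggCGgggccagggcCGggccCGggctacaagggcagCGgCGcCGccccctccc
Tet2: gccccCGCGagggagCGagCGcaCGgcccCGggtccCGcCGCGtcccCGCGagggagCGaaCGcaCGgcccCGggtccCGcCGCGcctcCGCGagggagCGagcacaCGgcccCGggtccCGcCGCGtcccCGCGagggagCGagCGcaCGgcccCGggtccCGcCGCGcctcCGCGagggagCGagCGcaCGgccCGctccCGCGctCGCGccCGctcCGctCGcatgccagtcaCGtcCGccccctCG
CG, which reads the same on both strands, occurred 17 times in the *Tet3* window, and 23.5% of the 32851 promoter windows of this length held at least as many. It occurred 21 times in that of *Dnmt3b*, a number reached by 16.3% of windows, and 51 times in that of *Tet2*, reached by 0.0670%. The median window held 6. The window of *Tdg* (chr10:82629588-82629837, plus strand) held 19, reached by 19.7% of windows. These are properties of the reference sequence, and the methylation of these windows was not analysed here.

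Per kilobase of exons, *Tdg* had a mean count of 12.1 per sample and no other of the 9 genes more than 0.227. *Tdg* (ENSMUSG00000034674, chromosome 10 of GRCm38, 82629828 to 82650799, plus strand) had 3120 counts over the 48 mice, which is 82.4% of the 3787 counts of the 9 genes. Its share of the summed count ranged from 69.1% to 92.7% per mouse, with a median of 82.1%. *Tet3* (chromosome 6, 83362373 to 83459084, minus strand) followed with 0.227 counts per kilobase and a mean of 3.79 counts per sample, *Dnmt3a* (chromosome 12, 3806007 to 3914443, plus strand) with 0.204 and 3.40, *Tet1* (chromosome 10, 62804570 to 62908996, minus strand) with 0.190 and 2.94, and *Dnmt1* (chromosome 9, 20907209 to 20959888, minus strand) with 0.184 and 1.35. The counting intervals of these 4 genes overlapped, so that their order per length is not resolved at this depth. *Mbd2* (chromosome 18, 70568189 to 70626131, plus strand) had 0.130 counts per kilobase and 20 in all, and *Tet2* (chromosome 3, 133463679 to 133545139, minus strand) 0.107 and 87. *Uhrf1* (chromosome 17, 56303321 to 56323486, plus strand) had 7 counts, with 41 of 48 mice at 0, and *Dnmt3b* (chromosome 2, 153649450 to 153687730, plus strand) had 2 counts, both in 1 *Tph2*+/- C mouse, with 47 mice at 0. In bulk tissue, fewer cells of a type and less RNA per cell cannot be told apart for any of these genes.

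**Figure D1:**
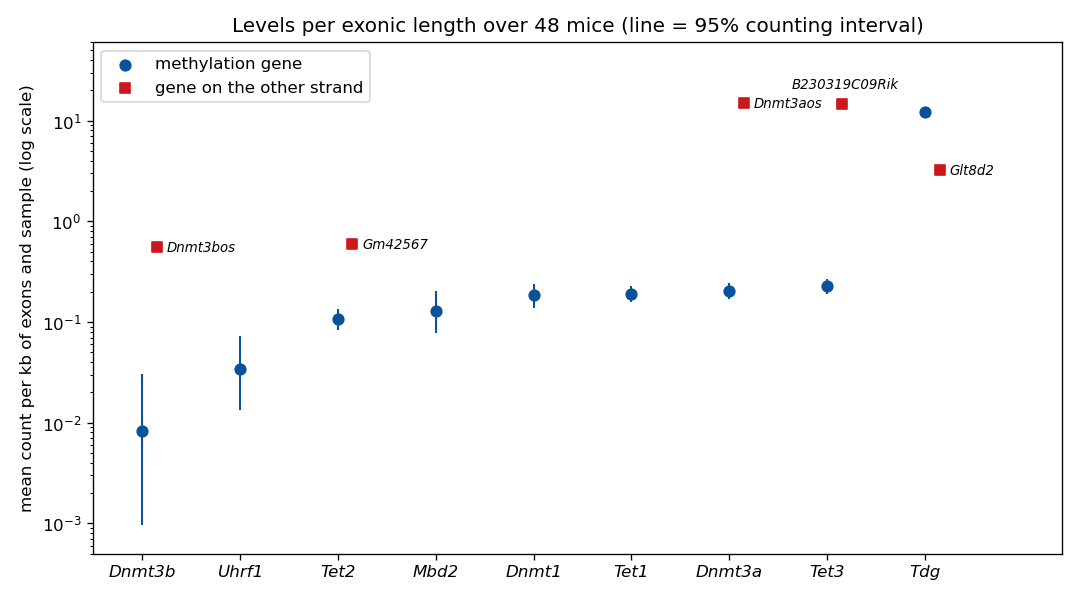
Mean count per kilobase of exons and sample over the 48 mice, on a log scale, for the 9 methylation genes (circles, line for the 95% Poisson counting interval) and for annotated genes whose span overlaps theirs on the other strand (squares). *Tdg* stands at 12.1 and the other 8 genes at 0.227 or less, while *Dnmt3aos* and *B230319C09Rik* stand at 15.0 and 14.7.

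Of the 9 genes, 5 had an annotated gene on the other strand. *Dnmt3aos*, an antisense RNA within *Dnmt3a* (chromosome 12, 3859293 to 3862244, minus strand), shares 43 exonic bases with it at 3861843 to 3861885 and 90 at 3862010 to 3862099, and had 995 counts, 6.10 times the total of *Dnmt3a*. *B230319C09Rik* (chromosome 6, 83441755 to 83448322, plus strand) lies inside the span of *Tet3* without a shared exonic base and had 1560 counts, 8.57 times the total of *Tet3*. Per kilobase of exons their mean counts were 15.0 and 14.7, against 0.204 for *Dnmt3a* and 0.227 for *Tet3*. *Tdg* shares 367 exonic bases at its end, from 82650433 to 82650799, with *Glt8d2* (chromosome 10, 82650433 to 82690650, minus strand), which had 899 counts and 3.24 per kilobase. *Gm42567* (chromosome 3, 133545097 to 133585053, plus strand) shares 43 bases with *Tet2* and had 10 counts, and *Dnmt3bos* (chromosome 2, 153648690 to 153650286, minus strand) shares none with *Dnmt3b* and had 19.

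Genes with exons on the other strand also had higher counts across the table. Of 16433 protein-coding genes with no exonic base on the other strand, 6.45% had a mean of at least 10 counts, against 40.8% of 4197 genes with at least 100 such bases and 48.8% of 2419 genes annotated as antisense. The part of the strand setting in these levels was not tested, and the values of all 9 genes are uncertain to that extent, also where no exon is shared, as for *Tet3*.

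**Figure D2:**
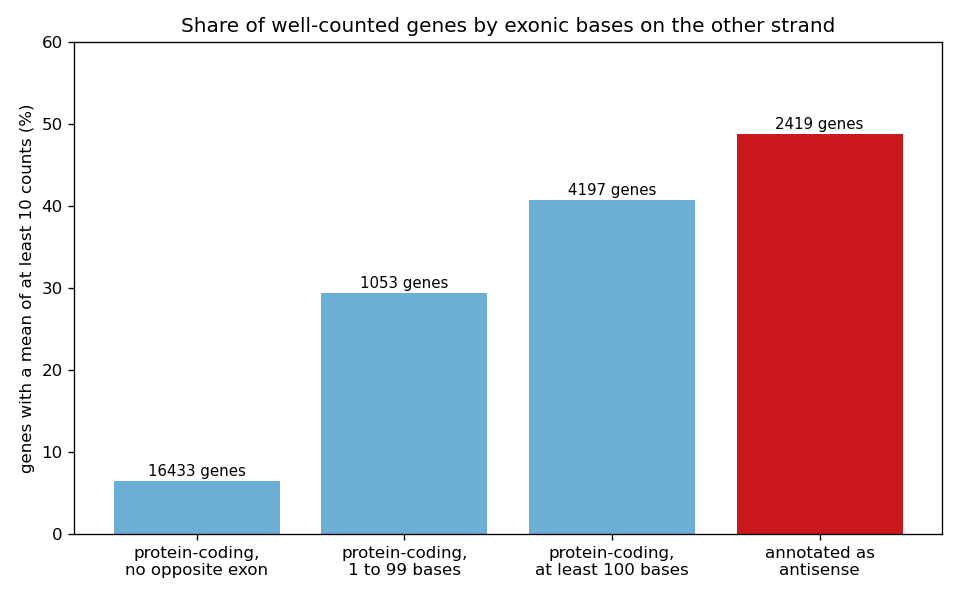
Percentage of genes with a mean of at least 10 counts among protein-coding genes with 0, 1 to 99 and at least 100 exonic bases on the other strand (first 3 bars) and among genes annotated as antisense (last bar), with the number of genes above each bar. The percentages are 6.45, 29.4, 40.8 and 48.8.

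The first question was whether any of the 6 groups differed in these genes. The thresholds of the study, p below 0.01 before adjustment and a lg2FC (log2 fold change) of more than 0.2 in either direction, defined a DEG, and p-values came from edgeR's quasi-likelihood test over 32234 genes. In the test over all 6 groups, where p alone decides, 0 of the 9 genes passed, against 2.0% of all genes tested. An unadjusted p below 0.05 was reached by 2 of them, *Mbd2* (adjusted p = 0.538) and *Dnmt1* (adjusted p = 0.593), against 5.81% of all genes. DESeq2 called 0 of 9 and gave *Dnmt1* an unadjusted p below 0.05. After Benjamini-Hochberg adjustment over all genes tested, 0 of 9 were below 0.05, against 0.779% of all genes.

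**Figure D3:**
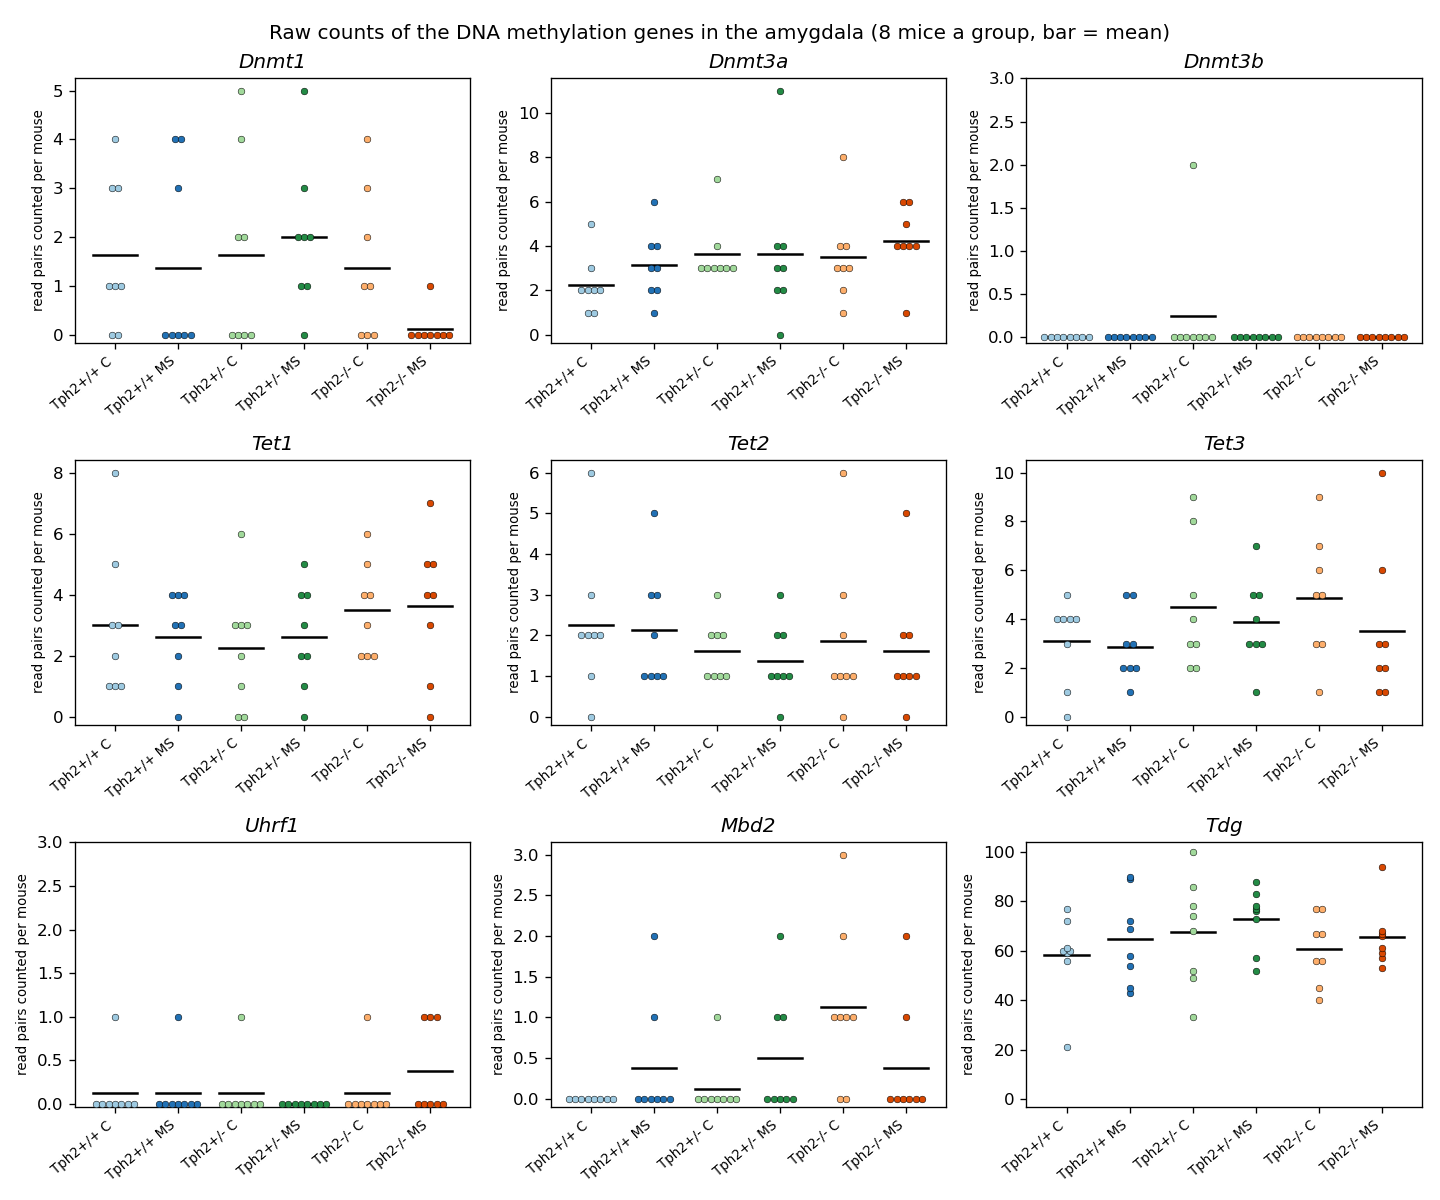
Read pairs counted on each of the 9 genes in every mouse (points) of the 6 groups, with the group mean as a bar and a separate vertical scale for each gene. *Tdg* ranges from 21 to 100 counts, *Dnmt1* is at 0 in 7 of 8 *Tph2*-/- MS mice, and *Mbd2* is at 0 in all 8 *Tph2*+/+ C mice.

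Among the writers, *Dnmt1*, the maintenance methyltransferase, was lower after MS in null mutants. Its counts were 0, 0, 0, 1, 1, 2, 3 and 4 under C (median 1), while after MS 7 mice had 0 and the other 1, so that the ranges overlapped at 0 and 1. The lg2FC was -2.55 ± 0.92 (SE, n = 8 per group, adjusted p = 0.760 with edgeR), and *Dnmt1* was the 1 of 9 genes called in this comparison, against 0.959% of all genes. From the totals of 1 and 11 counts, the ratio scaled to library size was 0.0924, with a 95% counting interval of 0.00215 to 0.635. This ratio lies further from 1 than the lg2FC, which edgeR draws toward 0 at few counts. The SE was derived from that lg2FC and the F statistic. The unadjusted p was 0.00572 with edgeR and 0.0131 with DESeq2, and the two-sided exact permutation test of mean CPM gave p = 0.0443, so that only the first passed 0.01. The call was also lost without the 7 control mice with high animal numbers (lg2FC -2.46). It was lost as well when genes needed a mean of at least 1 count, which kept *Dnmt1* (lg2FC -2.55).

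*Dnmt1* was also lower in null mutants than in wildtypes after MS, a comparison that uses the same null mutant MS mice. In wildtypes after MS its counts were 0 in 5 mice and 3, 4 and 4 in the others, which overlaps with the null mutants at 0. The lg2FC was -2.57 ± 0.92 (SE, n = 8 per group, adjusted p = 0.477 with edgeR), and again 1 of 9 genes was called, against 1.65% of all genes. The unadjusted p was 0.00551 with edgeR and 0.0133 with DESeq2, the exact permutation test gave p = 0.20, and without the 4 libraries rich in *Gm42418* edgeR gave p = 0.0294. The lg2FC was -2.53 with DESeq2 and -2.16 without the 4 libraries. The call was also lost when genes needed a mean of at least 1 count (lg2FC -2.57). The totals of *Dnmt1* were 13 in wildtypes under C, and 13 and 16 in heterozygotes under C and after MS. The difference in the effect of MS between null mutants and wildtypes (GE2) was a lg2FC of -2.17 ± 1.09 for *Dnmt1* (SE, adjusted p = 0.942 with edgeR), which did not pass.

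*Dnmt3a*, the leading writer of the adult brain, passed no comparison. In wildtypes its lowest, median and highest counts were 1, 2 and 5 under C and 1, 3 and 6 after MS. In heterozygotes they were 3, 3 and 7 under C and 0, 3 and 11 after MS, and in null mutants 1, 3 and 8 under C and 1, 4 and 6 after MS. All groups overlapped, and the means lay between 2.25 ± 1.28 and 4.25 ± 1.58 (SD, n = 8 each). The lg2FC of MS averaged over genotypes was 0.18 with a 95% interval of -0.33 to 0.70. *Dnmt3aos* on the other strand had group means of 19.8 ± 5.34 to 22.0 ± 9.83 and did not pass either, with a lg2FC of 0.02 and an interval of -0.20 to 0.24. *Dnmt3b*, the other de novo writer, was at 0 in all mice of 5 groups, which allows up to 3 counts per group. *Uhrf1*, the guide of DNMT1, had 1 count in each of 3 null mutants after MS and at most 1 mouse with a count in every other group.

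Among the erasers, *Tdg*, the glycosylase, gave the narrowest intervals. Its lowest, median and highest counts in wildtypes were 21, 60 and 77 under C and 43, 63.5 and 90 after MS. In heterozygotes they were 33, 71 and 100 under C and 52, 76.5 and 88 after MS. In null mutants they were 40, 61.5 and 77 under C and 53, 63.5 and 94 after MS. All groups overlapped, and the groups spread more within than between them. On the CPM scale after TMM, the group means lay between 74.3 ± 16.3 in null mutants under C and 90.7 ± 18.1 in heterozygotes after MS (SD, n = 8 each).

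The lg2FC of MS in *Tdg* was -0.02 in wildtypes (95% interval -0.28 to 0.24), 0.12 in heterozygotes (-0.13 to 0.38) and 0.16 in null mutants (-0.10 to 0.42) in the edgeR fit, and the sign in wildtypes turned with the scaling. The exact permutation test of mean CPM gave p = 0.954, p = 0.342 and p = 0.349 for the 3 genotypes in that order. Averaged over genotypes the lg2FC was 0.09 (-0.06 to 0.24, adjusted p = 1.0 with edgeR). *Glt8d2*, which shares exons with the end of *Tdg* and encodes a glycosyltransferase-like protein, had a lg2FC with a 95% interval of -0.23 to 0.23 over the same contrast.

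The 48 values of *Tdg* were most like those of *Gm15491* (Spearman's rho 0.649), *Oprm1*, the gene of the mu-opioid receptor (0.558), and *Gm45645* (0.501), among 5643 genes with a mean of at least 10 counts. *Glt8d2* ranked 329 with 0.286. These are descriptions over samples that share their library, depth and scaling with every gene compared.

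*Tet1*, *Tet2* and *Tet3*, the dioxygenases, passed no comparison. *Tet3* had medians of 4 and 2.5 counts in wildtypes under C and after MS, 3.5 and 3.5 in heterozygotes, and 5 and 2.5 in null mutants, with counts from 0 to 10 over all mice. Its lg2FC after MS was -0.28, -0.22 and -0.46 in these genotypes, and -0.32 with a 95% interval of -0.81 to 0.17 averaged over them. *Tet1* ran from 0 to 8 counts and *Tet2* from 0 to 6, and the averaged lg2FC was -0.03 (-0.58 to 0.53) for *Tet1* and -0.22 (-0.90 to 0.45) for *Tet2*. All 3 genes overlapped between MS and C in each genotype. *B230319C09Rik*, opposite to *Tet3*, had 16 to 45 counts (median 30.5) in heterozygotes under C and 21 to 72 (median 40.5) after MS, with a lg2FC of 0.41 ± 0.16 (SE, adjusted p = 0.797 with edgeR), which did not pass. *Dnmt3bos* was called higher in the same comparison, with 6 counts after MS and 0 under C (adjusted p = 0.775 with edgeR), and the exact permutation test gave p = 0.0769.

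**Figure D4:**
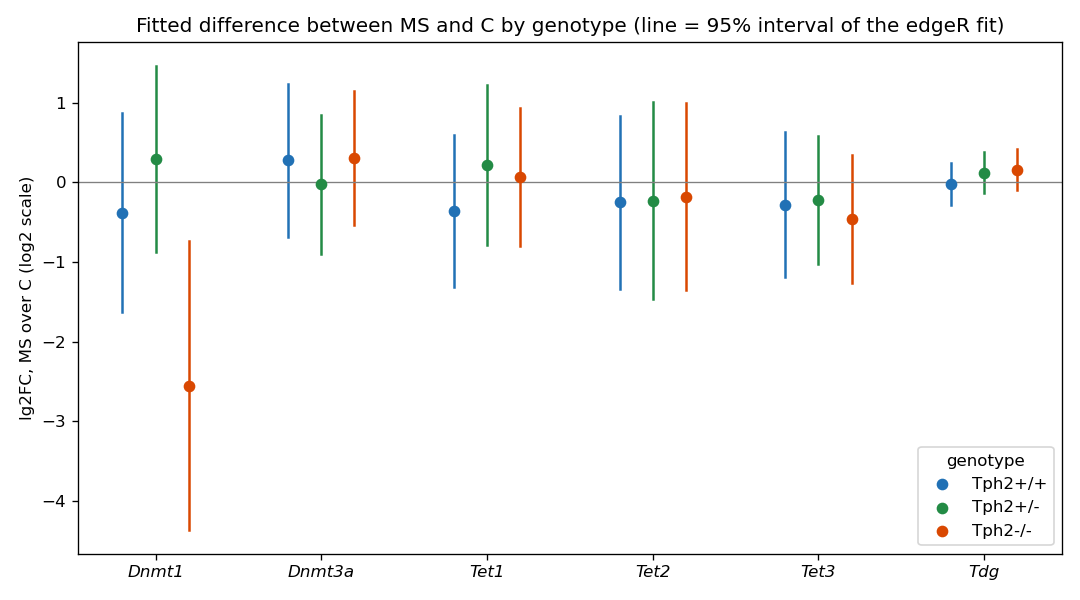
Fitted lg2FC of MS over C (points) in the 3 genotypes for *Dnmt1*, *Dnmt3a*, *Tet1*, *Tet2*, *Tet3* and *Tdg*. Lines show the 95% interval derived from the lg2FC and the F statistic of the edgeR fit. The interval of *Dnmt1* in *Tph2*-/- runs from -4.37 to -0.74, and all others shown include 0.

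*Mbd2*, the reader, was higher in null mutants than in wildtypes under C. It had no count in any of the 8 wildtypes and 0, 0, 1, 1, 1, 1, 2 and 3 counts in the null mutants, so that the groups overlapped at 0. *Mbd2* was the 1 of 9 genes called here (adjusted p = 0.489 with edgeR), against 0.89% of all genes. Its 9 counts, taken as exact, were at least 2.62-fold higher than a floor of 3 counts for the group at 0, and with the counting error of both groups the lower end of the 95% interval of the ratio was 1.72. The unadjusted p was 0.000774 with edgeR and 0.0562 with DESeq2, and the exact permutation test gave p = 0.00699. Totals after MS were 3 in wildtypes, 4 in heterozygotes and 3 in null mutants, and heterozygotes under C had 1. The GE2 contrast of *Mbd2* did not pass (adjusted p = 0.942 with edgeR).

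In the remaining comparisons 0 of the 9 genes were called by edgeR and 0 by DESeq2. The share of all genes called was 1.26% for MS averaged over genotypes, 1.57% for MS in wildtypes and 1.01% for MS in heterozygotes. It was 1.49% and 1.29% for heterozygotes against wildtypes under C and after MS. It was 1.75% for GE1, the difference in the effect of MS between heterozygotes and wildtypes, and 1.01% for GE2.

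At an unadjusted p below 0.05, *Dnmt1* (lg2FC -0.88, adjusted p = 0.863 with edgeR) was the 1 of 9 for MS averaged over genotypes, against 5.59% of all genes, and *Dnmt1* and *Mbd2* were 2 of 9 in GE2, against 4.94%. In both comparisons DESeq2 gave 0 of 9, and edgeR gave 0 of the 6 genes with a mean of at least 1 count. Without the 4 libraries rich in *Gm42418*, GE2 had 1 of 9 (*Mbd2*) and MS in wildtypes 1 of 9 (*Mbd2*) in place of 0. The count was 1 of 9 for MS in null mutants (4.93% of all genes) and for null mutants against wildtypes under C (4.16%) and after MS (5.75%), the genes being those named above. It was 0 of 9 for MS in wildtypes (5.27%) and in heterozygotes (4.87%), for heterozygotes against wildtypes under C (5.07%) and after MS (5.29%), and for GE1 (6.16%). Below an adjusted p of 0.05 it was 0 of 9 throughout, against 0.127% of all genes for MS averaged over genotypes and 0.441%, 0.0869% and 0.0372% for MS in wildtypes, heterozygotes and null mutants. The shares were 0.316% and 0.164% for heterozygotes against wildtypes under C and after MS, 0.0527% and 0.31% for null mutants against wildtypes, 0.506% for GE1 and 0.0341% for GE2. The median lg2FC of the 9 genes was -0.03 for MS averaged over genotypes, beside 0.00 over all genes tested.

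As a group, the summed count of the 9 genes followed *Tdg*. Under C and after MS it was 70.6 ± 20.1 and 77.6 ± 17.8 in wildtypes, 81.6 ± 26.2 and 87.0 ± 14.6 in heterozygotes, and 77.0 ± 14.9 and 79.5 ± 13.1 in null mutants (SD, n = 8 each). Means differed between MS and C by less than the SD within groups. Without *Tdg* the sum was 12.4 ± 4.84 and 12.6 ± 4.14, 14.1 ± 5.33 and 14.0 ± 4.66, and 16.4 ± 6.12 and 13.9 ± 5.38 in the same order. In null mutants the log2 ratio of MS to C in these unscaled counts was 0.05 with *Tdg* and -0.24 without it. Scaled to the counts on genes, the log2 ratio of the sum of all 9 genes was 0.179 in null mutants, 0.246 in heterozygotes and 0.055 in wildtypes. Without the 4 libraries rich in *Gm42418*, the log2 ratio of the unscaled summed count of all 9 genes was -0.0039 in null mutants, -0.0047 in place of 0.092 in heterozygotes and 0.058 in place of 0.136 in wildtypes, so that the sign turned in the first 2 genotypes. Without the 7 late-numbered controls the unscaled ratio was 0.163 in null mutants, 0.056 in heterozygotes and 0.191 in wildtypes. The lowest sum, 24, came from a *Tph2*+/+ C mouse whose library held 4569582 counts of *Gm42418*.

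**Figure D5:**
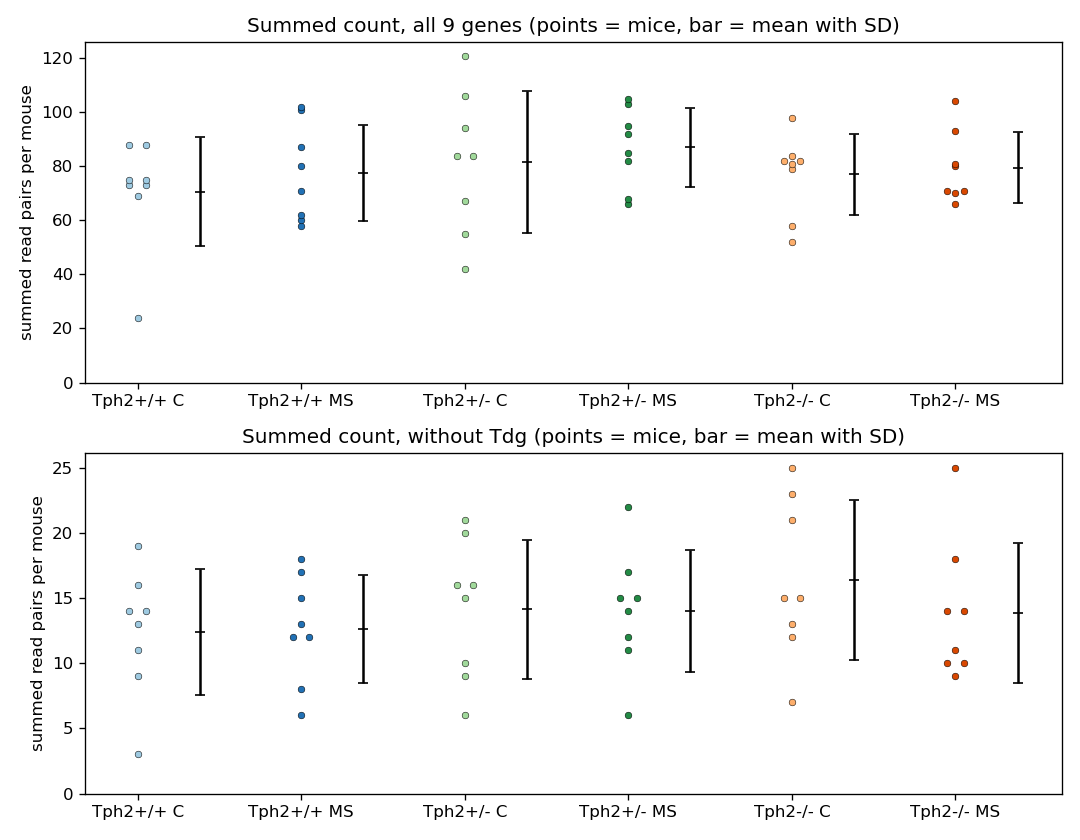
Summed read pairs per mouse (points) with group mean and SD (bars) for all 9 genes (upper panel) and for the 8 genes without *Tdg* (lower panel). Group means lie between 70.6 and 87.0 in the upper and between 12.4 and 16.4 in the lower panel, and all groups overlap.

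Of 65 further genes of the pathway, 64 had a count and were tested, and 0 or 1 was called in each comparison. None passed after adjustment. The other writers and cofactors (8 genes, such as *Uhrf2* and *Hells*) had mean counts of 0.167 to 6.15, and 0 of 8 was called in any comparison. Among 9 other readers, *Mbd6* was called higher after MS in null mutants (lg2FC 0.80 ± 0.27 SE, adjusted p = 0.760). Of 14 NuRD and corepressor genes, *Mta2*, a NuRD subunit, was called higher after MS in wildtypes (lg2FC 0.76, adjusted p = 0.596), and *Chd3*, a NuRD remodeler, lower after MS in heterozygotes (-0.71, adjusted p = 0.797) and in GE1 (-1.05, adjusted p = 0.340).

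Of 19 tested genes of demethylation and base excision repair, *Ung*, the uracil glycosylase, was called lower in null mutants than in wildtypes after MS (lg2FC -2.57, adjusted p = 0.551), on 13 counts in all mice. Of 14 genes listed for the supply and turnover of methyl groups, *Gnmt*, which uses up S-adenosylmethionine, was called higher with MS averaged over genotypes (0.82, adjusted p = 0.761) and *Ahcyl1* higher in null mutants than in wildtypes under C (1.26, adjusted p = 0.787). These p-values are from edgeR. A count of 1 of 64 is 1.56%, beside the shares of 0.89% to 1.75% of all genes called in the comparisons where 1 was called.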

How the data were processed

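Stranded total RNA libraries from 48 amygdalae were read as pairs. The authors mapped the pairs to GRCm38.p5, and the deposited table holds raw read counts for 48440 Ensembl genes that were not normalized. The submitters' processing notes name STAR, HTSeq and DESeq2, and the strand setting of the counting is not given in the sources used here. The smallest library had 609489 counts on genes and the largest 6296568. Positions came from GENCODE M21 (GRCm38), which holds 48058 of the genes, and promoter windows from RefSeq (GRCm38.p6).

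*Lars2* was removed, after the study's example, and the 32234 genes with at least 1 count were tested. The model had a coefficient for each of the 6 groups and used TMM scaling and the quasi-likelihood F test of edgeR 4.0.16 (R 4.3.3), with Benjamini-Hochberg adjustment. The script was tested on simulated libraries of equal size, in which only genes with a mean of at least 10 counts were changed. This does not show how the test behaves at the low counts of the 8 genes other than *Tdg*. Counting intervals are 95% Poisson or exact intervals. Single genes were also compared by two-sided exact permutation of mean CPM (counts scaled to library size), whose smallest p with 8 against 8 mice is 0.000155. Alternatives were DESeq2 1.42.0, other scalings and filters, a replicate block, left-out libraries and, added after seeing the data, edgeR with another quasi-dispersion. Tables were handled in Python 3.11.15 (pandas 2.3.3, NumPy 2.4.6, SciPy 1.17.1) and figures in matplotlib 3.10.9.

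The 9 genes, the further lists and the rule for named genes (all 9, the genes opposite to them, at most 2 called genes per list, comparison and direction, and the 3 genes most like *Tdg*) were chosen with earlier results of these data known. Same-numbered mice did not deviate together, so the numbers were not taken as pairs. The summed count was not tested.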

Additional observations from a re-analysis of the deposited data

Results flagged for a closer look

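In groups of 8 mice, the highest or lowest value was compared with its nearest neighbor, and a gap whose share of the group's range exceeded Dixon's 95% critical value was marked. Chance marks about 1 in 20 groups, and 20 of 81 were marked, most of them at counts of 0 to 11, where a difference of 1 count can make the whole range. *Tdg* had 21 counts in a *Tph2*+/+ C mouse, the next being 56, and the summed count was 24 in the same mouse, the next being 69. This is the library with 4569582 counts of *Gm42418*. *Tdg* had 94 counts in a *Tph2*-/- MS mouse, the next being 68. *Dnmt3a* had high values of 7 and 11 in heterozygotes under C and after MS and of 8 in null mutants under C, and a low value of 1 in null mutants after MS, and the nearest value was 4 in each. *Tet2* had a value of 5 in *Tph2*-/- MS, the next being 2, and *Dnmt3b* a value of 2 in *Tph2*+/- C. A value of 1 with all others at 0 was seen for *Dnmt1* in *Tph2*-/- MS, for *Uhrf1* in wildtypes under both conditions and in controls of the other genotypes, and for *Mbd2* in *Tph2*+/- C. Of the opposite genes, *Dnmt3aos* had 39 counts in a *Tph2*+/+ C mouse, the next being 24, *Dnmt3bos* 3 in *Tph2*+/- MS, and *Gm42567* 2 in *Tph2*+/+ C and 1 each in *Tph2*+/- C and MS. The cause of these values was not tested.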

How the results depend on the processing

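Leaving aside filterByExpr, which kept 1 of the 9 genes, and a planned edgeR setting that is its default and so equals the reported fit, the number of the 9 genes called stayed as reported in 111 combinations of comparison and alternative and changed in 15. In the test over all groups it went from 0 to 1 with library sizes of all uniquely placed pairs (*Mbd2*), and with the replicate block, without the 4 libraries rich in *Gm42418* and with the other quasi-dispersion, added after seeing the data (*Dnmt1* each). For MS averaged over genotypes it went from 0 to 1 without those 4 libraries (*Dnmt1*, lg2FC -1.11). It went from 1 to 0 for MS in *Tph2*-/-, for *Tph2*-/- against *Tph2*+/+ under C and for the same genotypes after MS with DESeq2, with filterByExpr, and when genes needed a mean of 1 count or more, which kept 6 of 9. This minimum left out *Mbd2* but kept *Dnmt1*, whose lg2FC was -2.55 for MS and -2.57 between the genotypes, as reported, while it no longer passed. The number called was also 0 for MS in *Tph2*-/- without the 7 late-numbered controls and by exact permutation, and for *Tph2*-/- against *Tph2*+/+ after MS without the 4 libraries and by exact permutation. The block moved no other count, and the same-numbered mice were not pairs by design. The lg2FC of *Tdg* for MS in *Tph2*+/+ turned from -0.02 to 0.0015 with DESeq2's size factors, 0.0015 with DESeq2, 0.12 with uniquely placed pairs, 0.0064 with filterByExpr and 0.026 without the 7 controls, and for *Tph2*-/- against *Tph2*+/+ after MS from 0.05 to -0.020 without the 4 libraries, and none of these passed. The summed count in *Tph2*-/- gave a log2 ratio of -0.24 without *Tdg*, in place of 0.05. Apart from the genes that the filters left out, the cause was not tested. The genes other than *Tdg* had means of under 4 counts per mouse, which limits their precision, and the cause of these low counts was not tested.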
